A study of Mus musculus with 8 samples.

Results

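The report concerns 48 genes of the Wnt pathway in mouse bone marrow stromal cells: 19 Wnt ligands, 12 receptors, 10 secreted inhibitors, 4 intracellular transducers and targets, and 3 R-spondins. They were taken by name from the GENCODE vM1 annotation of the build mm9, which holds 22367 protein-coding genes, and all 48 were found there. The study sorted marrow stromal cells into subpopulations and profiled the open chromatin of each by ATAC-seq, an assay that uses the enzyme Tn5 to cut DNA wherever it is accessible and to tag the ends for sequencing. The processed data were 7 peak lists, titled ATAC1 to ATAC7, each called by the authors against the same Input library. The labels give bone marrow of wild type C57BL/6J mice of 6 weeks for every library, with no treatment named. The study's methods name C57BL/6JJcl mice and a transgenic C57BL/6 line that expresses EGFP, both in an age range that starts at 6 weeks. They do not say which of these gave the ATAC-seq cells. The labels do not state which sorted population a title stands for, how many animals were pooled, or whether libraries share animals. Each title had 1 library, so no value has a replicate, no test between libraries was possible, and no interval given covers the spread between samples. Intervals of folds cover counting error of reads only, and Wilson intervals treat the genes as independent draws and show how far a share over so few genes can vary.

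Wnt ligands are secreted lipid-modified proteins that bind Frizzled receptors and the co-receptors Lrp5 and Lrp6 on the receiving cell. In the canonical branch this stabilises beta-catenin, which enters the nucleus and acts with transcription factors of the TCF/LEF family, while Dickkopf proteins, sclerostin, Wif1 and the secreted Frizzled-related proteins hold the signal back. In marrow and bone the pathway is known for promoting osteoblast over adipocyte fate, and R-spondins raise the sensitivity of a cell to Wnt by keeping Frizzled receptors at its surface.

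A start-site peak was a called peak whose centre lay within 1000 bases of an annotated transcript start of the gene. Any other peak with a base in the gene or within 10 kb of it was counted separately. A gene without a peak is one for which the authors' caller listed none, which is not proof of closed chromatin. In such bulk libraries fewer cells with open chromatin and less accessible chromatin in every cell cannot be told apart.

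The sequences of 7 start-site regions are given first, because the results turn on them: the strongest receptor start (Fzd5), a receptor start with a TCF/LEF match (Fzd7), the one ligand start called in every library (Wnt9a), a ligand start called in 5 libraries (Wnt2b), the starts of Sfrp1 and Sfrp4, which share one set of libraries, and the site in the Axin2 start region. They were read from NCBIM37, which is mm9, on the plus strand. Capitals mark a match to one of the searched motifs on either strand, which were those of TCF/LEF (spelled CTTTGAA, or else CTTTGAT, or else CTTTGTA, or else CTTTGTT), RUNX (spelled TGTGGTT) and AP-1 (spelled TGAGTCA, or on the other strand TGACTCA). Each window is 200 bases around the centre of the best-ranked peak with exon bases removed, except for Axin2, where only the motif and the bases next to it are shown. The Fzd5 window, chr1:64784325-64784508, was 82.6% GC with 26 CpG dinucleotides. The Fzd7 window was chr1:59538779-59538978, that of Wnt9a chr11:59120200-59120399 and that of Wnt2b chr3:104764628-104764822. The Sfrp1 window was chr8:24521565-24521764, and its GC share of 42.0% was below the 64.5 to 87.0% of the ligand and receptor windows. This window follows the ATAC5 peak of Sfrp1, centred at -310 bases from the start. The Sfrp1 peaks of ATAC1, ATAC2 and ATAC6, centred at -82.5 to -71.5 bases, lie outside it. The wider sequence around the annotated Sfrp1 start had 62.9% GC, so the 42.0% does not describe that start as a whole. The Sfrp4 window, with 47.5% GC, was chr13:19714698-19714897, and the Axin2 stretch, in an untranslated or non-coding exon, chr11:108781734-108781757.
Fzd5: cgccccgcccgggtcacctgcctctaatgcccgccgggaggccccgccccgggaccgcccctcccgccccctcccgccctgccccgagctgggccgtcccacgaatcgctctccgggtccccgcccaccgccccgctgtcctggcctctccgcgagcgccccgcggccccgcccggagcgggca
Fzd7: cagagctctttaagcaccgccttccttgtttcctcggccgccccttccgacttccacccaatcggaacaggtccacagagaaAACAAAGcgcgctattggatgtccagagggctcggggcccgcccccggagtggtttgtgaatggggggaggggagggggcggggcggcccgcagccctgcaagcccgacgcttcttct
Wnt9a: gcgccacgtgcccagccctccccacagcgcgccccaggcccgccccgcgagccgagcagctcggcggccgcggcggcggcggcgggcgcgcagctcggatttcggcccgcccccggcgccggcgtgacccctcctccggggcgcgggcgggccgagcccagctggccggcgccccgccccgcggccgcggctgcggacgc
Wnt2b: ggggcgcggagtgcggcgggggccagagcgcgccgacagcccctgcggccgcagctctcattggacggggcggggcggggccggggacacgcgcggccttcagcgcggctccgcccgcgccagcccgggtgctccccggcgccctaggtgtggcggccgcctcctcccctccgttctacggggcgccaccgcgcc
Sfrp1: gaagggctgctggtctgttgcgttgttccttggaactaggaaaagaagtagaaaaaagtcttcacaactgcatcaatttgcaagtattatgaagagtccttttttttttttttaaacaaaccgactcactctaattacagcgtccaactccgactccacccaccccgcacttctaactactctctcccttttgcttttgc
Sfrp4: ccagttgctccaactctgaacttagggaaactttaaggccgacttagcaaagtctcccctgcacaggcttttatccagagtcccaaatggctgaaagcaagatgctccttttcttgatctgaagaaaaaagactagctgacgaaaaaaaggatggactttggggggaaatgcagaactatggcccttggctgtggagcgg
Axin2: ggctgcgCTTTGATaaggtcctgg

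Regions away from start sites are shown for the intron of Lef1 (chr3:130881804-130882003), the introns of Lrp5 (chr19:3669230-3669429), Wnt5b (chr6:119471961-119472160) and Wnt6 (chr1:74819761-74819960), and intergenic sequence downstream of Fzd6 (chr15:38874805-38875004). The first 3 are the best-ranked such peaks among the 48 genes, the Wnt6 region was the one called in every library, and the Fzd6 region carries a TCF/LEF match.
Lef1: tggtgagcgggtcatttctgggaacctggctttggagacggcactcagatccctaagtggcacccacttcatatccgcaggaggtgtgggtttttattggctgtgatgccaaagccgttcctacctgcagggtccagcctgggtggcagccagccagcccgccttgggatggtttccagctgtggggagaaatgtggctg
Lrp5: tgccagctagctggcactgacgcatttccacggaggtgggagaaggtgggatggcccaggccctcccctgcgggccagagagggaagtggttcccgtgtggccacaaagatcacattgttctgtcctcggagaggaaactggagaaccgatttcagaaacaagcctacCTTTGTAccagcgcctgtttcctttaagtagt
Wnt5b: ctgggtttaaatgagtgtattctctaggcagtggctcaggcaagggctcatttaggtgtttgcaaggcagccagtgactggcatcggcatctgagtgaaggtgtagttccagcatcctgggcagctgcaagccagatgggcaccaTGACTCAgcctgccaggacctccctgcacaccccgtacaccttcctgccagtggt
Wnt6: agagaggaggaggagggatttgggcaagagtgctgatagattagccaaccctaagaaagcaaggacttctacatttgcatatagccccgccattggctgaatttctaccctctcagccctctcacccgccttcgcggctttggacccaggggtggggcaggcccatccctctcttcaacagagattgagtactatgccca
Fzd6: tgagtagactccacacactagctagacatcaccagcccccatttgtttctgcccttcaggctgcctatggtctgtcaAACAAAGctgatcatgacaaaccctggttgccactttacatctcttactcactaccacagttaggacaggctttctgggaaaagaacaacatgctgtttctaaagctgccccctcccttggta

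Receptor and ligand starts differed widely. All 12 receptors had a start-site peak in at least 1 library, and 5 had one in all 7, which were Fzd1, Fzd4, Fzd5, Fzd7 and Lrp6. Of the 19 ligands, 13 lacked a start-site peak throughout, and only Wnt9a had one in all 7. Of the 10 inhibitors 6 had none, and Wif1 was in all 7. The 4 transducers and targets all had one, with Ctnnb1 and Axin2 in all 7, and of the 3 R-spondins only Rspo3 had one. Over the 48 genes, 9 (18.8%, 95% Wilson interval 10.2 to 31.9%) were called in all 7 libraries, against 36.8% of all protein-coding genes. A start-site peak was missing from every library for 21 genes (43.8%, interval 30.7 to 57.7%), against 43.3% of protein-coding genes. The remaining 18 genes (37.5%) were called in 1 to 6 libraries, against 19.8% of protein-coding genes.

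**Figure D1:**
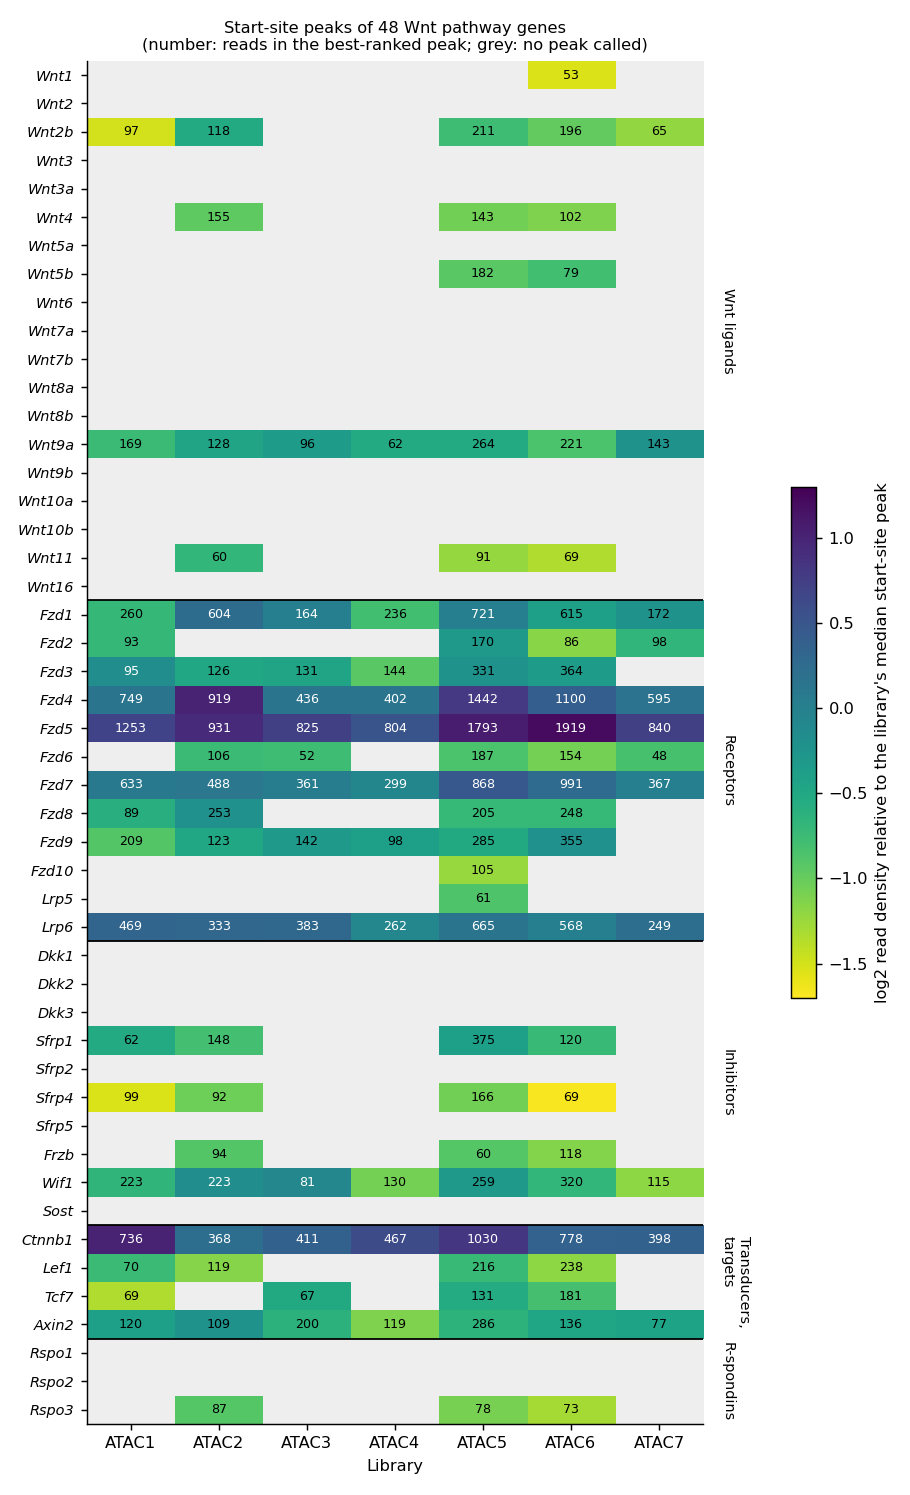
Each row is 1 of the 48 genes, grouped by role, and each column 1 library. The number is the read count of the best-ranked start-site peak, the colour its log2 read density relative to the median start-site peak of protein-coding genes in that library, and grey means that no peak was called; every receptor row has at least 1 call and 5 of 12 are filled throughout, while 13 of 19 ligand rows are empty.

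The same difference in role was seen within each library. In ATAC5 all 12 receptors and 5 of 19 ligands (26.3%, interval 11.8 to 48.8%) had a start-site peak. In ATAC4 the counts were 7 receptors (58.3%, interval 32.0 to 80.7%) and 1 ligand (5.26%, interval 0.935 to 24.6%). The 48 genes together were called 18 times in ATAC1 (37.5%), where 49.0% of all protein-coding genes were called, and 21 times in ATAC2 (43.8%), against 50.2%. They were called 13 times in ATAC3 (27.1%), against 43.5%, 11 times in ATAC4 (22.9%), against 43.7%, and 12 times in ATAC7 (25.0%), against 42.0%. In ATAC5 they were called 26 times (54.2%), against 52.7%, and in ATAC6 25 times (52.1%), against 51.5%. The Wilson interval of the share lay below the share of protein-coding genes in ATAC3 (16.6 to 41.0%), ATAC4 (13.3 to 36.5%) and ATAC7 (14.9 to 38.8%), and included it in ATAC1, ATAC2, ATAC5 and ATAC6.

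**Figure D2:**
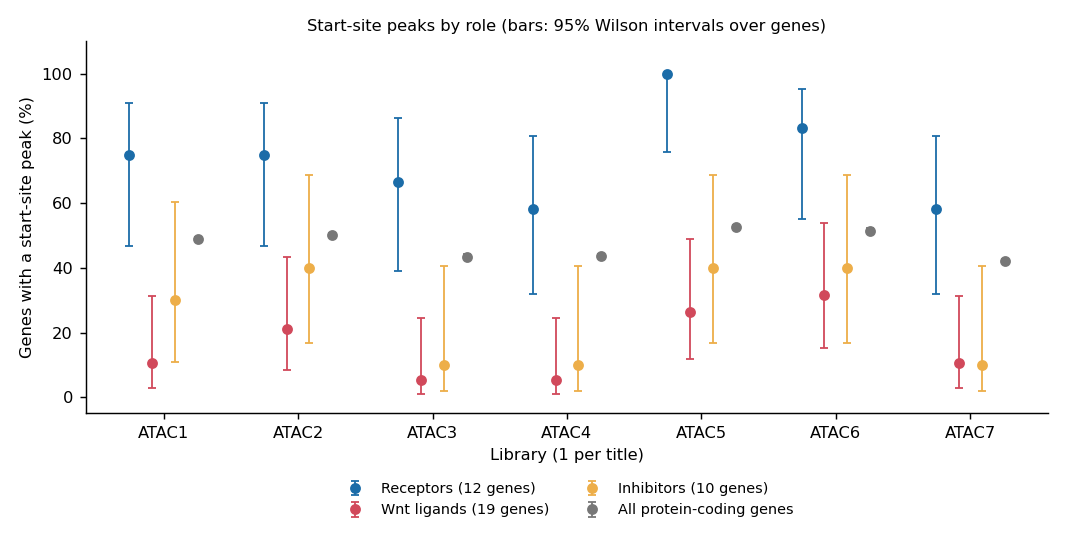
The percentage of genes with a start-site peak is plotted for each library, with bars for 95% Wilson intervals over genes. Receptors lay between 58.3% and 100% and ligands between 5.26% and 31.6%, with all protein-coding genes between 42.0% and 52.7%.

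Facts of the lists as a whole bear on these counts. The lists held between 15188 peaks (ATAC7) and 32280 peaks (ATAC2), and the 3 with the fewest peaks were the ones with 11 to 13 of the 48 genes called. Total depth is not in the files, and reads in peaks summed to between 3437628 in ATAC7 and 8766021 in ATAC5. With the 15188 best-ranked peaks of each library only, the 48 genes were called 12 times in ATAC1 and 15 in ATAC2, 12 in ATAC3 and 11 in ATAC4, 20 in ATAC5, 16 in ATAC6 and 12 in ATAC7. As shares of the 48 genes these were 25.0%, 31.2%, 25.0%, 22.9%, 41.7%, 33.3% and 25.0% in ATAC1 to ATAC7. The shares of protein-coding genes were then 44.3%, 41.5%, 43.1%, 43.4%, 45.6%, 45.9% and 42.0% in ATAC1 to ATAC7. ATAC5 still had the highest count of the 48 genes, while its share of protein-coding genes was just below that of ATAC6. The Wilson interval of ATAC1 (14.9 to 38.8%) then lay below the share of protein-coding genes, as in ATAC3, ATAC4 and ATAC7, and those of ATAC2, ATAC5 and ATAC6 still included it. Of 12 stromal markers 3 to 7 had a start-site peak per library, with Nt5e in all 7, Pdgfra in 5 and none in any for Prrx1, Lepr, Col3a1 and Dcn. Of 12 haematopoietic markers 1 to 4 had one, with Spi1 in all 7, Ptprc in ATAC1, ATAC3, ATAC5 and ATAC7, and 6 in no library. Hbb-b1 had 248 reads in ATAC1, 243 in ATAC4 and 70 in ATAC6. Klf1 was called in ATAC1 and ATAC4, Itgam in ATAC3 and ATAC5, and Cd79a in ATAC5. Of 12 endothelial markers 0 to 5 had one, and the highest count, 5, was in ATAC5, where 52.7% of all protein-coding genes had one. Vwf was called in 5 libraries, Erg and Egfl7 in ATAC5 and ATAC6, and Pecam1 and Kdr in ATAC5. No library called 7 of the 12, Cdh5, Tek and Emcn among them. For comparison with all 3 marker lists, 42.0 to 52.7% of protein-coding genes had a start-site peak per library. The study's sort took cells negative for CD31, CD45 and Ter119, the first 2 being the products of Pecam1 and Ptprc, and positive for Sca-1 and PDGFR-alpha. The part of depth and of other cell types in the Wnt gene counts was not tested.

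CpG dinucleotides, which mark many broadly accessible promoters, were counted at each start. A start was counted as CpG-rich when the 1001 bases around the most upstream annotated start had at least 50% GC and at least 0.6 of the CpG dinucleotides expected from base composition. By this measure 37 of the 48 genes (77.1%) had a CpG-rich start, against 44.2% of all protein-coding genes. Of these 37, 13 (35.1%) lacked a start-site peak in every library, whereas 8.75% of the 9879 CpG-rich starts of protein-coding genes had none. Only 8 (21.6%) were called in all 7, against 67.9%. Among genes without a CpG-rich start, 8 of 11 (72.7%) had no start-site peak, against 70.7% of protein-coding genes.

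The CpG-rich starts without a peak belonged mainly to ligands. They were those of Wnt2, Wnt3, Wnt3a, Wnt5a, Wnt6, Wnt7a, Wnt7b, Wnt9b and Wnt10b, 9 of the 14 CpG-rich ligand starts (64.3%), with Sfrp2, Sfrp5, Rspo1 and Rspo2. Wnt3a is the ligand commonly used to activate beta-catenin, Wnt5a the best known non-canonical ligand, and Wnt10b a ligand known to favour bone over fat in marrow. All 12 receptor starts were CpG-rich and none lacked a peak. The ligand value depended on the limit. With at least 0.75 of the expected CpG dinucleotides, 8 of 19 ligands (42.1%) and 11 of 12 receptors (91.7%) had a CpG-rich start. Of these 8 ligand starts, 3 (37.5%) had no peak, those of Wnt7a, Wnt7b and Wnt9b, against 10 of the other 11 (90.9%). Wnt3a (0.748), Wnt5a (0.654) and Wnt10b (0.628) were then among the other 11. Over the 48 genes, 5 of 24 CpG-rich starts (20.8%) had no peak at this limit, against 5.99% of protein-coding genes. The part of CpG content in the ligand calls was not tested.

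**Figure D3:**
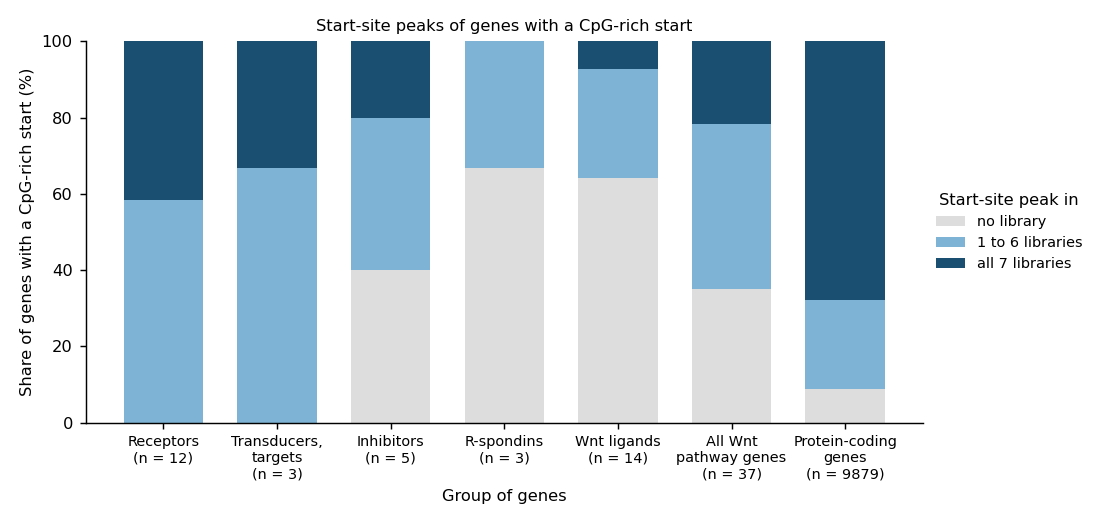
Among genes with a CpG-rich start, stacked bars give the percentage with a start-site peak in no library, in 1 to 6 and in all 7, by role and for all protein-coding genes. No peak was called in any library for 64.3% of ligand starts (37.5% at the limit of 0.75, which is not plotted), 0% of receptor starts and 8.75% of protein-coding gene starts.

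A start-site peak was found for 6 ligands. Wnt9a, a ligand known from joint formation, was called in all 7 libraries. Its best-ranked peak held 169 reads in ATAC1 and 128 in ATAC2, 96 in ATAC3 and 62 in ATAC4, 264 in ATAC5, 221 in ATAC6 and 143 in ATAC7. The fold over Input, the authors' ratio of scaled library reads to Input reads, ranged from 2.81 (exact 95% interval 1.74 to 4.66) in ATAC4 to 6.37 (4.88 to 8.40) in ATAC5. The reads per 1000 bases were 0.554 to 0.854 of the median start-site peak of each library, so the Wnt9a start was open everywhere but below the typical called start. Wnt2b, a canonical ligand, had 97 reads in ATAC1, 118 in ATAC2, 211 in ATAC5, 196 in ATAC6 and 65 in ATAC7, with folds of 3.59 to 8.03, and no peak in ATAC3 and ATAC4.

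The other 4 ligands were called in ATAC2, ATAC5 and ATAC6 or in part of these. Wnt4, known from kidney and ovary development, had 155 reads in ATAC2, 143 in ATAC5 and 102 in ATAC6, and its folds of 3.15 to 3.60 had overlapping intervals. Wnt11, a non-canonical ligand, had 60 reads in ATAC2, 91 in ATAC5 and 69 in ATAC6. Wnt5b had 182 reads in ATAC5 and 79 in ATAC6, and Wnt1, a ligand in which mutations cause brittle bone, had 53 reads in ATAC6 against 27 Input reads. These were weak peaks: the Wnt1 peak stood at 84.8% of the ATAC6 list counted from its best peak, and the best rank among the 4 genes was that of Wnt5b in ATAC5, at 47.5%.

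Receptor starts ranged from the strongest of the 48 genes, that of Fzd5, to weak ones called in 1 library. The Fzd5 peak held 1253 reads in ATAC1 and 931 in ATAC2, 825 in ATAC3 and 804 in ATAC4, 1793 in ATAC5, 1919 in ATAC6 and 840 in ATAC7, over 89 to 121 Input reads. Its density was above the median start-site peak in every library, from 1.43 times in ATAC4 to 2.31 times in ATAC6, with the highest mean of the 48 genes (1.82). The fold was 26.5 (21.9 to 32.3) in ATAC6 and 25.4 (21.1 to 30.8) in ATAC5, and 9.35 (7.51 to 11.8) in ATAC3. The intervals of ATAC5 and ATAC6 did not overlap that of ATAC3, while the median fold of start-site peaks of all protein-coding genes also differed, with 12.4 in ATAC5, 11.9 in ATAC6 and 5.89 in ATAC3.

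Fzd4, which is also the receptor for norrin in blood vessels, had 749 reads in ATAC1 and 919 in ATAC2, 436 in ATAC3 and 402 in ATAC4, 1442 in ATAC5, 1100 in ATAC6 and 595 in ATAC7. Its start lies within 1000 bases of a start of Tmem135, so these reads cannot be given to one gene. In ATAC2 the best-ranked peak was centred at -614.5 bases, in an intron of Tmem135, while in ATAC3, ATAC4, ATAC5 and ATAC7 it was centred at -67.5 to -65.0 bases. Fzd7 had 633, 488, 361, 299, 868, 991 and 367 reads in ATAC1 to ATAC7 in that order, and its window holds the TCF/LEF match AACAAAG printed above. Lrp6, the co-receptor that transmits the canonical signal, had 469, 333, 383, 262, 665, 568 and 249 reads in the same order, with relative densities of 0.937 to 1.25. All 3 were thus near or above the typical start-site peak, and Fzd1, the other receptor called everywhere, had 164 to 721 reads and relative densities of 0.580 to 1.18.

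The co-receptors Lrp5 and Lrp6 stood at opposite ends. Lrp5, in which mutations change bone mass, was called in ATAC5 only, with 61 reads over 45 Input reads, a fold of 2.32 (1.55 to 3.49), and its start is CpG-rich. Fzd10 was also called in ATAC5 only, with 105 reads over 25 Input reads, and its start shares the window with 5930412G12Rik.

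The receptors in between were missing from different libraries. Fzd3, known from planar cell polarity in neurons, had 95, 126, 131, 144, 331 and 364 reads in ATAC1 to ATAC6 and no peak in ATAC7. Fzd9, known from osteoblasts, had 209, 123, 142, 98, 285 and 355 reads in the same libraries and none in ATAC7 either. Fzd6 had 106 reads in ATAC2, 52 in ATAC3, 187 in ATAC5, 154 in ATAC6 and 48 in ATAC7, and its start shares the window with Gm17265. Fzd2 had 93 reads in ATAC1, 170 in ATAC5, 86 in ATAC6 and 98 in ATAC7 and, like Tcf7, no peak in ATAC2. Fzd8 had 89 reads in ATAC1, 253 in ATAC2, 205 in ATAC5 and 248 in ATAC6, in best-ranked peaks centred at -878.5 to -750.0 bases. A second start-site region of Fzd8, in its coding exon, held 211 reads in ATAC2, 220 in ATAC5 and 172 in ATAC6. The relative densities of these 5 genes were 0.447 to 0.890, below the typical called start wherever they were called.

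Among the inhibitors, Wif1, which binds Wnt ligands outside the cell, was called in all 7 libraries. It had 223 reads in ATAC1 and 223 in ATAC2, 81 in ATAC3 and 130 in ATAC4, 259 in ATAC5, 320 in ATAC6 and 115 in ATAC7, with folds from 4.09 (2.73 to 6.30) in ATAC7 to 11.7 (8.28 to 16.9) in ATAC5. Sfrp1, a secreted decoy that resembles the ligand-binding part of Frizzled, had 62 reads in ATAC1, 148 in ATAC2, 375 in ATAC5 and 120 in ATAC6. Sfrp4 had 99 reads in ATAC1, 92 in ATAC2, 166 in ATAC5 and 69 in ATAC6, over 10 to 27 Input reads. Frzb, which is best known in cartilage, had 94 reads in ATAC2, 60 in ATAC5 and 118 in ATAC6. The 3 decoys Sfrp1, Sfrp4 and Frzb therefore had no peak in ATAC3, ATAC4 and ATAC7. No start-site peak was called in any library for Dkk1, Dkk2 and Dkk3, of which Dkk1 and Dkk2 act on Lrp5 and Lrp6, for Sfrp2 and Sfrp5, or for Sost, the sclerostin gene of osteocytes.

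Among transducers and targets, Ctnnb1, which encodes beta-catenin, had 736 reads in ATAC1 and 368 in ATAC2, 411 in ATAC3 and 467 in ATAC4, 1030 in ATAC5, 778 in ATAC6 and 398 in ATAC7. Its best-ranked peaks overlapped in 1 merged region and were centred at -63.5 to 0.0 bases from the nearest of several closely spaced internal starts, which was not the same start in every library, and not at the most upstream annotated start. Its density was 1.16 to 1.99 times the median start-site peak, the second highest mean (1.48) of the 48 genes, and its highest relative density was in ATAC1. Axin2, a feedback inhibitor and standard target of the pathway, had 120, 109, 200, 119, 286, 136 and 77 reads in ATAC1 to ATAC7, with densities of 0.462 to 0.855 of the median. Its start window holds the TCF/LEF match CTTTGAT printed above, which lay inside the called peaks of ATAC3, ATAC4 and ATAC5 and outside those of ATAC1, ATAC2, ATAC6 and ATAC7.

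Lef1 and Tcf7, DNA-binding partners of beta-catenin, were called in 4 libraries each. Of the other members of their family, which belong to the comparison list described further on, Tcf7l1 (113 to 716 reads) and Tcf7l2 (107 to 407 reads) were called in all 7. Lef1 had 70 reads in ATAC1, 119 in ATAC2, 216 in ATAC5 and 238 in ATAC6, and the best-ranked peak lay at different places, from -847.5 bases in ATAC6 to 983.0 bases in ATAC2, around the gene's 3 annotated starts. Tcf7 had 69 reads in ATAC1, 67 in ATAC3, 131 in ATAC5 and 181 in ATAC6, in an intron of the neighbouring gene A630014C17Rik, and no peak in ATAC2. Among the R-spondins, Rspo3 had 87 reads in ATAC2, 78 in ATAC5 and 73 in ATAC6 with folds of 5.74 to 6.68, and the intervals of all 3 overlapped. Rspo1 and Rspo2 had no start-site peak.

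The 18 genes called in 1 to 6 libraries fell into 10 sets of libraries, of which 6 held a single gene, and 8 of the 18 were in the 2 largest. Fzd8, Sfrp1, Sfrp4 and Lef1 shared exactly ATAC1, ATAC2, ATAC5 and ATAC6, a set found for 8.33% of the 48 genes and for 1.44% of protein-coding genes. Wnt4, Wnt11, Frzb and Rspo3 shared exactly ATAC2, ATAC5 and ATAC6, again 8.33% of the 48 genes, against 1.85%. Among genes called in 1 to 6 libraries, each of these sets held 22.2% of the Wnt pathway genes, against 7.25% and 9.30% of the protein-coding genes. Of the 18 genes called in 1 to 6 libraries, 17 (94.4%) were called in ATAC5 and 16 (88.9%) in ATAC6, 12 (66.7%) in ATAC2 and 9 (50%) in ATAC1, 4 (22.2%) in ATAC3, 3 (16.7%) in ATAC7 and 2 (11.1%) in ATAC4. For the 4439 protein-coding genes called in 1 to 6 libraries the shares were 80.1%, 74.0%, 67.3%, 61.3%, 33.5%, 26.3% and 34.4% in the same order of libraries. The order was alike apart from ATAC4, which ranked last for the Wnt genes but above ATAC3 and ATAC7 for protein-coding genes.

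**Figure D4:**
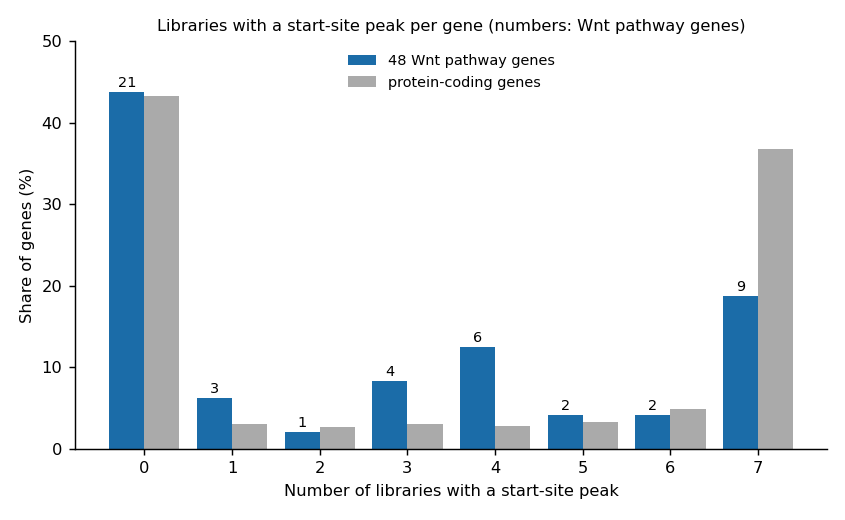
The share of genes, in percent, is plotted against the number of libraries with a start-site peak, for the 48 Wnt pathway genes and all protein-coding genes, with gene numbers above the bars. Shares at 0 libraries were nearly equal (43.8% and 43.3%), while 18.8% of Wnt pathway genes and 36.8% of protein-coding genes stood at 7.

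The density of the called starts was set beside the typical called start. Fzd5, Fzd4 and Ctnnb1 lay above it in every library, and 3 to 6 of the called genes did so in each. The median density of the called genes was 0.648 of the library's median start-site peak in ATAC1 and 0.716 in ATAC2, 0.942 in ATAC3 and 0.761 in ATAC4, 0.663 in ATAC5, 0.580 in ATAC6 and 0.851 in ATAC7. These medians rest on 11 to 26 genes, and in ATAC1, ATAC2, ATAC3, ATAC4 and ATAC7 the binomial interval of the median included 1. In ATAC5 it ran from 0.547 to 0.808 and in ATAC6 from 0.461 to 0.761. The median rank was 32.0 to 49.96% of the list, against 18.1 to 30.6% for the start-site peaks of all protein-coding genes.

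A further 52 genes of the pathway, listed for comparison, had start-site peaks more often. Of these 27 (51.9%, interval 38.7 to 64.9%) were called in all 7 libraries, against 18.8% of the 48 genes and 36.8% of protein-coding genes. Among them were the ligand carrier Wls, the kinases Gsk3a and Gsk3b, the scaffold Axin1, the tumour suppressor Apc, and Dvl1, Dvl2 and Dvl3, which relay the signal inside the cell. A further 18 (34.6%) were called in 1 to 6 libraries, against 37.5% of the 48 genes and 19.8% of protein-coding genes. Only 7 (13.5%, interval 6.68 to 25.3%) had none, against 43.8% of the 48 genes and 43.3% of protein-coding genes. These were Dkk4, Kremen2, Lgr5, Notum, Rspo4, Sostdc1 and Sp5, several of them secreted antagonists. The list was written with earlier results of these data known and is given as a description.

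Away from their starts, the 48 genes had 63 other regions, of which 1 was counted for both Wnt1 and Wnt10b, so that 62 were distinct. Such a peak was found for 10 genes (20.8%) in ATAC1, against 37.1% of protein-coding genes, for 20 (41.7%) in ATAC2, against 41.9%, and for 5 (10.4%) in ATAC3, against 26.3%. It was found for 4 genes (8.33%) in ATAC4, against 26.7%, for 22 (45.8%) in ATAC5, against 43.4%, for 17 (35.4%) in ATAC6, against 41.9%, and for 6 (12.5%) in ATAC7, against 25.6%. The Wilson interval lay below the share of protein-coding genes in ATAC1 (11.7 to 34.3%), ATAC3 (4.53 to 22.2%), ATAC4 (3.29 to 19.6%) and ATAC7 (5.86 to 24.7%), and included it in ATAC2, ATAC5 and ATAC6. These counts depended on how many peaks each list held. With the 15188 best-ranked peaks of each library only, such a peak was found for 10 genes (20.8%) in ATAC2, 7 (14.6%) in ATAC6, 6 (12.5%) each in ATAC1, ATAC5 and ATAC7, and 4 (8.33%) each in ATAC3 and ATAC4, while the shares of protein-coding genes were 25.3 to 28.6%. The interval then lay below that share in ATAC5 (5.86 to 24.7%, against 28.4%) and ATAC6 (7.25 to 27.2%, against 28.6%) too, and only that of ATAC2 included it. Such peaks in all 7 libraries were found for 4 genes (8.33%), against 19.8%, of which Wnt5b, Wnt10b and Lrp5 had them at the start of another gene and Wnt6 did not, and 20 genes (41.7%) had none in any, against 46.6%. The median length of the genes was 22564 bases, against 15427 for protein-coding genes. Wnt3, Wnt3a, Wnt7a, Wnt8b, Wnt9b, Wnt16, Dkk1, Sfrp5 and Rspo1, 9 genes in all (18.8%), had no peak of either kind, against 30.0% of protein-coding genes.

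Of the 63 regions, 6 lay at the start of another gene. The best-ranked of all, at chr19:3575813-3576153 near the end of Lrp5, lay at the start of Ppp6r3, and the next, at chr6:119428751-119430068 inside Wnt5b, lay at the start of Fbxl14. Of the other 57, 29 were in introns, 16 were intergenic, 9 in coding exons and 3 in untranslated or non-coding exons. Of the 56 distinct ones, ATAC5 held 33 (58.9%, against 51.2% of such regions in the whole series), ATAC2 held 32 (57.1%, against 53.8%), and ATAC6 held 20 (35.7%, against 44.6%). ATAC1 held 10 (17.9%, against 31.2%), ATAC7 held 3 (5.36%, against 13.05%), ATAC3 held 2 (3.57%, against 12.5%), and ATAC4 held 1 (1.79%, against 11.54%). The 3 libraries with the fewest peaks thus held few such regions in the whole series too. Of the 56, 33 (58.9%) were called in a single library, against 50.1% of the 30239 merged regions away from starts in the whole series. These single-library regions include chr3:130814354-130814629 of Lef1, which shared bases with a start-site region called in ATAC2, ATAC5 and ATAC6. The 30239 regions leave out any region that reaches a start-site peak.

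Lef1 had the most, with 9 regions, 5 of them called in ATAC2. The best-ranked, chr3:130881739-130882087, lies in an intron of Lef1 at 66179.5 bases from the nearest start. It held 275 reads in ATAC2, 61 in ATAC5 and 125 in ATAC6, over 27, 19 and 25 Input reads, with folds of 16.1 (10.8 to 24.9), 5.50 (3.24 to 9.75) and 7.87 (5.09 to 12.6). The intervals of ATAC2 and ATAC5 did not overlap. In the one start-site region of Lef1 that these 3 libraries shared, chr3:130814119-130814618, ATAC2 had 119 reads, ATAC5 had 70 and ATAC6 had 130. A further ATAC5 peak, chr3:130814354-130814629, shared bases with that region and held 110 reads. It was counted as another region because its centre lay 1102.5 bases from the nearest start, so the 70 reads are not all of the ATAC5 signal there.

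Introns of Lrp5 and Wnt5b gave the same set of libraries. The Lrp5 region, chr19:3669145-3669340, held 191 reads in ATAC2, 60 in ATAC5 and 103 in ATAC6. The TCF/LEF match CTTTGTA printed above lies in the window but past the end of this region, outside the called peaks. The folds of the Lrp5 region were 11.2 (7.45 to 17.4), 7.90 (4.29 to 15.7) and 11.6 (6.60 to 21.9), with overlapping intervals. The Wnt5b region, chr6:119471853-119472115, held 188, 85 and 72 reads in the same libraries, with overlapping intervals of the fold and an AP-1 match, TGACTCA. The 3 introns were chosen by rank, and the best-ranked peak of each was that of ATAC2. Exactly ATAC2, ATAC5 and ATAC6 was the set of 6 of the 56 distinct regions away from starts, and of 8.92% of such regions in the whole series.

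Wnt6 had no start-site peak but the one region away from starts that was called in all 7 libraries. It lies in an intron of Wnt6 at chr1:74819567-74819918, beyond the 1000-base limit of the start, and held 79 reads in ATAC1 and 98 in ATAC2, 46 in ATAC3 and 77 in ATAC4, 125 in ATAC5, 123 in ATAC6 and 62 in ATAC7. Input reads were only 4 or 5 except for 15 in ATAC6, so the folds were high and imprecise, from 11.6 (4.24 to 44.4) in ATAC3 to 53.4 (20.4 to 200) in ATAC5. Only 3.91% of all regions away from starts were called in all 7 libraries.

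**Figure D5:**
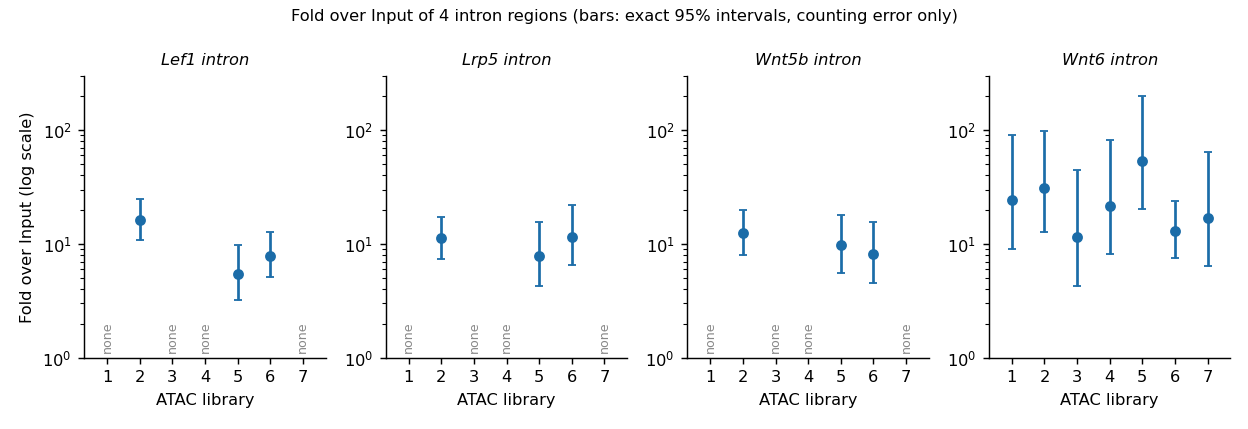
Fold over Input on a log axis is plotted for the best-ranked intron region of Lef1, Lrp5, Wnt5b and Wnt6 in each library, regions at the start of another gene left out, with exact 95% intervals for counting error, and "none" where no peak was called. The first 3 were called in ATAC2, ATAC5 and ATAC6 only, and the Wnt6 region in all 7.

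Other genes with many regions differed in how far libraries shared them. Of the 9 Lef1 regions, 1 was called in more than 1 library. Another, chr3:130814354-130814629, was called in ATAC5 only but shared bases with the start-site region of Lef1 that was called in ATAC2, ATAC5 and ATAC6. Wnt5b had 5 regions, of which 3 were called in more than 1 library, the start of Fbxl14 included. Rspo3 had 4, all in introns and all called in ATAC2, and the one at chr10:29252812-29253291 held 103 reads in ATAC2, 84 in ATAC5 and 102 in ATAC6. Wnt7b had 4, each called in 1 library, and Wnt10a had 4, between 9158.0 and 16635.5 bases downstream of its start and called in 2, 3, 4 and 4 libraries, of which that at chr1:74854551-74854914 was called in ATAC2, ATAC5, ATAC6 and ATAC7. Lrp6 had 4, of which 3 were called in ATAC5 only. Lrp5 had 4, of which 2 lay at the start of Ppp6r3, 1 is the intron region shown above, and the last, also in an intron, held 48 reads in ATAC2 and 63 in ATAC5. Downstream of Fzd6, at 37025.0 bases from its start, the region shown above held 98 reads in ATAC2, 130 in ATAC5 and 63 in ATAC6.

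TCF/LEF matches stood in 7 of the 42 start-site windows (16.7%), against 6.69% of the 20444 start-site regions of the whole series. They were in Axin2, Fzd7 (both of its regions), Lef1, Tcf7, Wnt11 and Wnt5b. RUNX and AP-1 matches were in 0 of the 42, against 2.81% and 4.25%. Median GC was 67.5% in the 42 and 63.5% in all start-site regions. Of the 56 windows away from starts, 6 held a TCF/LEF match (10.7%, against 12.1%), 6 a RUNX match (10.7%, against 8.68%) and 10 an AP-1 match (17.9%, against 19.3%). A match is a run of letters and was not tested as a binding site.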

How the data were processed

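ATAC-seq reads of 7 libraries and 1 Input library were aligned by the authors to mm9 with bowtie, and peaks were called in each library against Input with CisGenome in two-sample mode under the study's p-value and FDR limits. Read shifting for the transposase and removal of duplicates are not given in the sources used here, and the labels' extraction text describes RNA. For the outer region around each peak the deposited tables list a count of library reads and a count of Input reads, and these are the depth behind a value. The fold computed by the authors is the ratio of scaled library reads to Input reads plus 0.01, and its scale factor was recovered within 0.0398%. The rank used here is the order of the deposited list, and the authors' ranking signal columns were not printed. Columns had no header and were identified from their values, and the coordinate lists equalled the tables in all 164103 peaks. The deposited tables hold no p-value per peak.

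Peaks were assigned to GENCODE vM1 transcripts (build NCBIM37, mm9). Relative density is reads per 1000 bases of the outer region of the best-ranked start-site peak, divided by the median over protein-coding genes of that library. Peaks of different libraries that shared at least 1 base were merged. Intervals of folds are exact binomial intervals of library against Input reads, and intervals of shares are Wilson intervals. The former cover counting error only, since reads are not independent molecules, and the latter treat genes as independent draws. The 48 genes, the comparison list and the markers were chosen with earlier results of these data known. Values in every library are given for genes called in 1 to 6 libraries and, of those called in all 7, for the 5 with the highest and the 3 with the lowest mean relative density. Other regions are given for the 5 genes with the most (ties included) and the 5 best-ranked peaks. Symbols of 2 comparison or marker genes were matched by an older name. The assignment step was tested on simulated peaks against a direct count. The software was Python 3.11.15, numpy 2.4.6 for arrays, pandas 2.3.3 for tables, scipy 1.17.1 for intervals and, for figures, matplotlib 3.10.9.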

Additional observations from a re-analysis of the deposited data

How the results depend on the processing

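No paired analysis was possible because the groups hold 1 library each. The number of genes with no start-site peak stayed between 17 and 27 under the 7 alternatives run for it, where 41.6 to 49.1% of protein-coding genes had none. The number called in all 7 libraries stayed between 8 and 10, except that peaks with a fold of at least 5 gave 3. That limit also moved the start-site counts to 11 in ATAC1, 5 in ATAC3, 5 in ATAC4 and 6 in ATAC7, where the shares of protein-coding genes became 41.7%, 28.8%, 31.2% and 27.6% (22.1% in all 7 libraries), and counts of other peaks to 4 in ATAC1 and 13 in ATAC2, and to 2 in ATAC3 and in ATAC4. With 15188 best-ranked peaks in each library, the start-site count moved to 16 in ATAC6, counts of other peaks to 6 in ATAC1, 10 in ATAC2, 6 in ATAC5 and 7 in ATAC6, and the other regions to 17. Within 50 kb of the gene, other peaks were found for 25 genes in ATAC1 and 37 in ATAC2, 20 in ATAC3 and 19 in ATAC4, 35 in ATAC5, 34 in ATAC6 and 20 in ATAC7, in 177 regions. Within 5 kb the counts were 3 in ATAC3 and 2 in ATAC4. Without peaks at the start of another gene they were 2 in ATAC3, 1 in ATAC4 and 3 in ATAC7. For other peaks, no share of protein-coding genes is given at 50 kb, at 5 kb, at the fold limit or without those starts. The counts of other peaks at these settings therefore do not show whether the Wnt pathway genes stood above or below protein-coding genes. With the peak's own length in place of the outer region, the median relative density fell below its interval, to 0.440 in ATAC1, 0.331 in ATAC4 and 0.426 in ATAC5. The limit of 0.75 for CpG-rich starts was chosen after seeing the data. The cause of these moves was not tested, apart from the smaller or larger number of peaks that the settings admit. Start-site windows of 500 and 2000 bases, coding transcripts only, any base of the peak, and leaving out the 278 peaks with 0 Input reads kept every start-site count within 1.5 times its value.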
